A study of Mus musculus with 3 samples.

Results

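Asparagine tRNA with the anticodon GTT, tRNA-Asn-GTT, was followed through small RNA libraries of mouse epididymis, the duct in which sperm mature. Its members were all 13 gene rows whose name starts with tRNA-Asn-GTT among the 446 nuclear tRNA gene rows of the deposited gene table. This tRNA was chosen from its difference between knockout and wild-type read counts in that table, so its knockout values are a description. No p is given for them, and calls from the fit over all tRNAs are printed beside the share called among all tRNAs, with nothing read from them. Libraries came from 1 wild-type sample, marked B6WT, and from 2 samples of genotype Alkbh3-/-, called knockout 1 and knockout 2, with no treatment, age, sex or number of animals given in the labels. All 3 were gel-cut RNA of 15 to 50 nt. The wild type has no replicate, and nothing in the labels says that the knockout libraries came from separate animals. Alkbh3 and marker genes of the tissue are not features of these tables, so neither genotype nor tissue could be checked. The libraries held 15107055, 15411457 and 21169908 reads in the order wild type, knockout 1, knockout 2, and miRNA reads made up 15.1%, 24.8% and 30.7% of them.

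tRNA-Asn-GTT reads the asparagine codons, and its wobble base, the first of the anticodon, is guanine that mammalian cells exchange for queuosine. Cells cut tRNAs into fragments, for instance with the ribonuclease angiogenin in the anticodon loop, and such fragments are abundant in epididymis and in maturing sperm. ALKBH3, the enzyme missing in the knockout, removes methyl groups from modified adenines and cytosines of tRNA, and those modifications can affect both cutting and reverse transcription of a tRNA. Gene copies of 1 tRNA differ little or not at all, so reads can rarely be assigned to any of them, and values per copy below are those of the deposited rows.

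Genomic sequence of the 74 nt gene is shown for orientation, and no fragment below was placed on it. The first line gives bases 1 to 47 of tRNA-Asn-GTT-3-1 (chr1:171033969-171034015, minus strand) with the anticodon, bases 35 to 37, in capitals. The second gives bases 47 to 74 of tRNA-Asn-GTT-3-8 (chr10:80249205-80249232, plus strand). Both stretches were taken from RefSeq promoter windows of neighbouring genes in GRCm38.p6, the assembly called mm10, and are written 5′ to 3′.
tRNA-Asn-GTT-3-1: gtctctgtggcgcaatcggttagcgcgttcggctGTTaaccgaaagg
tRNA-Asn-GTT-3-8: gttggtggttcgagcccacccagggacg
The windows overlapped in 7 bases of the tRNA, 41 to 47, all 7 of them identical, and only base 47 is in both stretches shown. The first 46 bases of tRNA-Asn-GTT-3-8, read from a GENCODE transcript, were the same 46 letters as in tRNA-Asn-GTT-3-1. The other copies were not compared by sequence here.

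All 13 copies are 74 nt long in the files' mm10 coordinates, and 7 of them lie on chromosome 3. A RefSeq tRNA gene had the same ends in 12 cases, tRNA-Asn-GTT-5-1 being the exception. Introns of genes transcribed in the opposite sense hold tRNA-Asn-GTT-3-4 (chromosome 3, plus strand, 96451425 to 96451498, in BC107364) and tRNA-Asn-GTT-3-5 (chromosome 3, minus strand, 96459138 to 96459211, in the non-coding Gm10685). tRNA-Asn-GTT-3-8 (chromosome 10, 80249159 to 80249232, plus strand) overlaps the first exon of a transcript of Ndufs7, a subunit of mitochondrial complex I, on the same strand. The other 10 lie in no GENCODE gene.

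The gene table gave tRNA-Asn-GTT 3167 wild-type reads, 702 reads for knockout 1 and 1374 for knockout 2. Scaled to reads per 1000000 reads of the 5 RNA classes (RPM), the levels were 210 RPM (95% exact Poisson interval 202 to 217), 45.6 RPM (42.2 to 49.0) and 64.9 RPM (61.5 to 68.4). Both knockout libraries lay under the wild type, knockout 1 by 4.60-fold and knockout 2 by 3.23-fold, and their mean was 55.2 ± 13.7 RPM (SD, n = 2). These intervals cover counting error only, since PCR reads are not independent molecules. Fewer cells of a kind and fewer such fragments per cell cannot be told apart in whole tissue.

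Across all anticodons, the fit of edgeR's quasi-likelihood test gave tRNA-Asn-GTT a log2 fold change of -1.92. Of 45 anticodons in that fit, 8.89% were called lower at an adjusted p under 0.05, tRNA-Asn-GTT among them. Of its gene rows, 11 passed edgeR's count filter and all 11 were called lower, beside 8.62% of all 348 rows tested. The median log2 fold change over the 45 anticodons was -0.29, and -0.03 with TMM factors, under which tRNA-Asn-GTT stood at -1.66. Calls over all rows were 30 lower and 11 higher, and 6 lower and 12 higher with TMM factors. The tRNA was chosen from this contrast and its copies share reads. With the miRNA class left out of the library size its log2 fold change was -1.68, and with the column sums of the gene table -1.66. In neither fit was tRNA-Asn-GTT called, and the first called 0 of 45 anticodons in either direction. The second called 2 lower and 1 higher of 45. The remaining 2 rows had too few reads: tRNA-Asn-GTT-4-1 had 2, 1 and 6, and tRNA-Asn-GTT-5-1 had 1, 0 and 0.

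The anticodons nearest to tRNA-Asn-GTT in their pair of log2 ratios to the wild type, among 42 with at least 100 wild-type reads, were Thr-AGT, Arg-TCG and Val-TAC. Thr-AGT stood at log2 -1.34 in knockout 1 and -1.24 in knockout 2, Arg-TCG at -0.91 and -0.99, and Val-TAC at -1.01 and -0.66. For tRNA-Asn-GTT the values were -2.20 and -1.69, the lowest of the 42 in both libraries, and the medians over all 42 were -0.48 and -0.12. All these ratios share 1 wild-type library, and the limit of 100 reads was set on the wild type alone. Nothing is read from the rank of tRNA-Asn-GTT, since it was chosen from this contrast.

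Reads were spread unevenly over the copies in the gene table. The copy tRNA-Asn-GTT-3-2 (minus strand of chromosome 2, 18587044 to 18587117) held 1133 wild-type reads, 35.8% of the tRNA's reads, while the other 8 copies numbered 3 held 164 to 315. In knockout 1 it held 143 reads against 44 to 87 in the other 8, and in knockout 2 250 against 98 to 182. It stood at 5.21 times the median of the other 8 in the wild type and at 2.34 and 2.13 times in the knockout libraries. Without this copy the sums were 2034, 559 and 1124 reads, or 135, 36.3 and 53.1 RPM, and the wild type was 3.71-fold and 2.54-fold above the knockout libraries.

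Each of the other copies with at least 50 wild-type reads had a lower RPM in both knockout libraries. That limit uses the wild type alone, and the copies share reads, so they are not separate observations. From the wild type to knockout 1 and knockout 2, reads of tRNA-Asn-GTT-3-6 (chromosome 3) went from 315 to 62 and 128, of tRNA-Asn-GTT-3-5 from 263 to 69 and 114, and of tRNA-Asn-GTT-3-7 (chromosome 5) from 258 to 87 and 182. tRNA-Asn-GTT-3-1 had 219, 60 and 121 reads, tRNA-Asn-GTT-3-4 had 216, 51 and 103, and tRNA-Asn-GTT-3-9 (chromosome 11) had 199, 44 and 100. tRNA-Asn-GTT-3-8 had 178, 66 and 128 reads, the smallest fold of these copies in RPM, 2.75 and 1.95. tRNA-Asn-GTT-3-3 (chromosome 3) had 164, 47 and 98 reads, tRNA-Asn-GTT-2-1 (chromosome 3) 111, 36 and 67, and tRNA-Asn-GTT-1-1 (chromosome 3) 108, 36 and 77. The fold over all 11 copies ran from 2.75 to 8.08 in knockout 1 and from 1.95 to 6.35 in knockout 2, with tRNA-Asn-GTT-3-2 at the top of both ranges.

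A different picture of the copies came from the per-library tables, which give each gene's reads in 2 read classes and by length. There tRNA-Asn-GTT held 1526, 492 and 1165 reads, or 101, 31.9 and 55.0 RPM. The wild type was 3.16-fold above knockout 1 and 1.84-fold above knockout 2, so the difference kept its direction and was smaller. The copies numbered 3 were even, with 137 to 179 reads in the wild type, 37 to 55 in knockout 1 and 92 to 127 in knockout 2. tRNA-Asn-GTT-3-2 was one of them, with 138, 45 and 92 reads. tRNA-Asn-GTT-3-3 had the most wild-type reads, 179 against 54 and 120, followed by tRNA-Asn-GTT-3-8 with 164, 48 and 103, and tRNA-Asn-GTT-3-4 with 157, 39 and 105. tRNA-Asn-GTT-1-1 held 68, 36 and 89 reads and tRNA-Asn-GTT-2-1 69, 39 and 76, and in RPM they were 1.93-fold and 1.81-fold lower in knockout 1, and 1.07-fold and 1.27-fold lower in knockout 2.

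**Figure D1:**
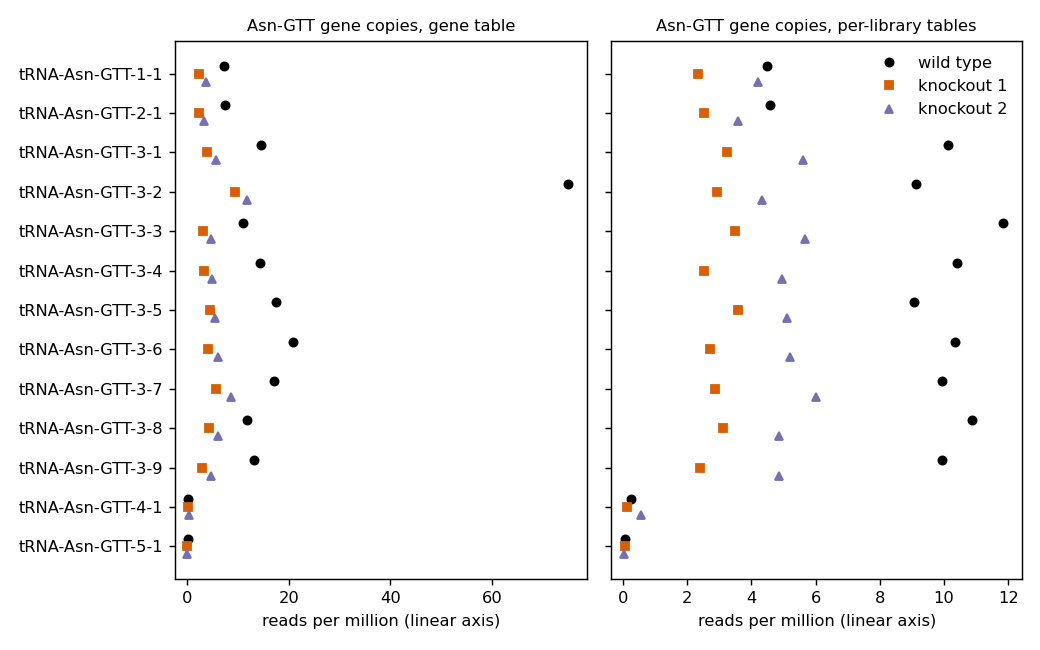
RPM of each Asn-GTT gene copy in the wild type (circles), knockout 1 (squares) and knockout 2 (triangles), in the gene table (left) and in the per-library tables (right). The horizontal ranges differ, and tRNA-Asn-GTT-3-2, with 1133 wild-type reads on the left, stands with the other copies on the right.

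The kinds of deposited table differed in how many reads they gave this tRNA. The gene table held 2.08 times the per-library count in the wild type, 1.43 times in knockout 1 and 1.18 times in knockout 2. Among 42 anticodons with at least 100 wild-type reads in the per-library tables, the median ratio was 0.676, 0.640 and 0.645 in the same order. tRNA-Asn-GTT had the highest wild-type ratio of all 42, and His-GTG, with 1.89, had the next. In the knockout libraries 2 anticodons were above it, His-GTG at 2.26 and 2.18 times and Arg-ACG at 1.57 and 1.69 times. The choice of tRNA-Asn-GTT used gene-table counts, the numerator of this ratio, so nothing is read from its rank. Of the surplus of 1641 wild-type reads, 995 were in tRNA-Asn-GTT-3-2, whose surplus was 98 and 158 reads in the knockout libraries. The sources used here do not say which reads the gene table counts and the per-library tables leave out, and the part of these reads in the difference between genotypes was not tested.

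**Figure D2:**
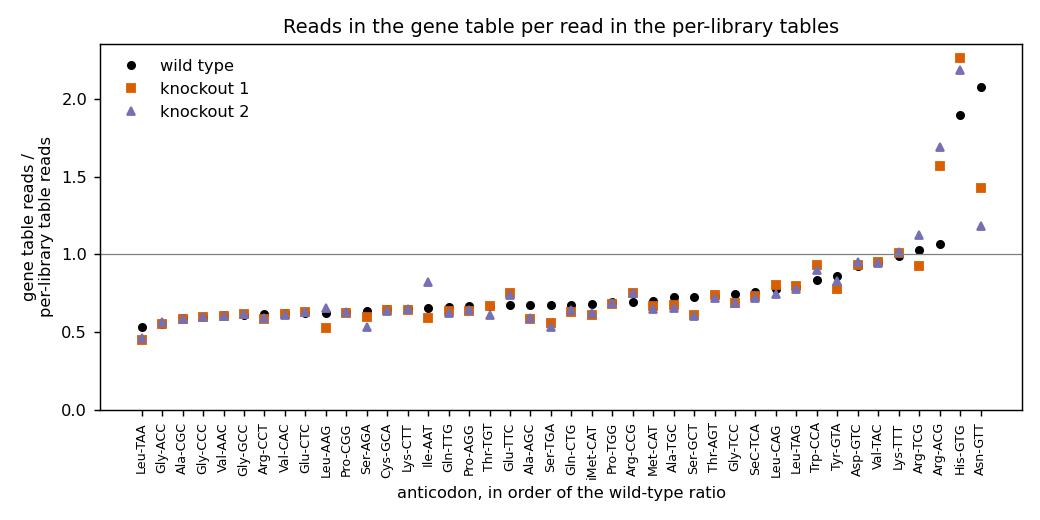
Reads in the gene table divided by reads in the per-library tables for 42 anticodons, in the order of the wild-type ratio, with the wild type as circles, knockout 1 as squares and knockout 2 as triangles. Asn-GTT is at the right end, at 2.08 for the wild type and at 1.43 and 1.18 for the knockout libraries.

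No source used here describes the read classes, which are called first and second in column order. Asn-GTT was mostly second-class, with 81.3% of its wild-type reads (95% Wilson interval 79.2 to 83.1%). Second-class reads made up only 0.377% of all wild-type tRNA reads, and the median over the 42 anticodons was 5.46%, with Asn-GTT the fifth highest. In knockout 1 the second class held 61.2% of Asn-GTT reads (56.8 to 65.4%) and in knockout 2 65.8% (63.1 to 68.5%). Both knockout shares lay under the wild-type interval, with a mean of 63.5% ± 3.29 (SD, n = 2). Among reads of 15 to 50 nt alone the share was 96.5% in the wild type (95.3 to 97.4%) and 90.1% in knockout 1 (86.4 to 92.9%), while knockout 2, at 97.1% (95.7 to 98.1%), was not lower. That range leaves out most first-class reads, so it cannot show what the lower share of knockout 2 over all lengths rests on. In RPM the first class of knockout 2 was level with the wild type, 18.8 against 18.9. Its second class stood at 36.2 against 82.1.

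The classes differed in how far they fell short of the wild type. First-class reads numbered 286, 191 and 398, or 18.9, 12.4 and 18.8 RPM, so that knockout 2 stood at 0.993 times the wild type and knockout 1 at 0.655 times. The wild type lay within 0.736 knockout SD of the knockout mean, and with the miRNA class left out of the library size knockout 2 was above the wild type (log2 0.28). Second-class reads numbered 1240, 301 and 767, or 82.1, 19.5 and 36.2 RPM, 4.20-fold and 2.27-fold lower in the knockout libraries.

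Each class had its own lengths. In the first class 54 nt was the most frequent length of every library, with 106, 81 and 160 reads in the wild type, knockout 1 and knockout 2, followed by 53 nt with 72, 45 and 129. Reads of 53 and 54 nt together stood at 11.8, 8.18 and 13.7 RPM, with knockout 2 above the wild type and knockout 1 below it. These reads are longer than the gel range of 15 to 50 nt in the labels. Reads of over 50 nt made up 15.8%, 32.1% and 32.2% of Asn-GTT reads, against 0.149%, 0.217% and 0.240% of all tRNA reads.

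The second class held the largest differences between genotypes in Asn-GTT reads. Reads of 35 nt, its most frequent wild-type length, numbered 503, 46 and 142. Reads of 36 nt numbered 134, 9 and 34. Together these stood at 42.2 RPM (38.9 to 45.6) in the wild type, 3.57 RPM (2.69 to 4.64) and 8.31 RPM (7.13 to 9.64) in the knockout libraries, a difference of 11.8-fold and 5.07-fold. The knockout libraries differed from each other by more than their counting intervals, and both lay under the wild-type interval.

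Shorter reads of the same class differed less. Reads of 29 nt numbered 310, 122 and 317 and reads of 28 nt 162, 89 and 182. Together they stood at 31.2, 13.7 and 23.6 RPM, 2.28-fold and 1.33-fold lower in the knockout libraries. With the miRNA class left out of the library size, their log2 ratio to the wild type went from -0.41 to -0.11 in knockout 2. In knockout 1 it went from -1.19 to -1.01. Reads of 29 nt were the most frequent second-class length in both knockout libraries. The minor lengths of 39 and 40 nt numbered 59, 7 and 16 reads, which is 8.60-fold and 5.17-fold lower, and reads of 31 nt numbered 21, 3 and 6.

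**Figure D3:**
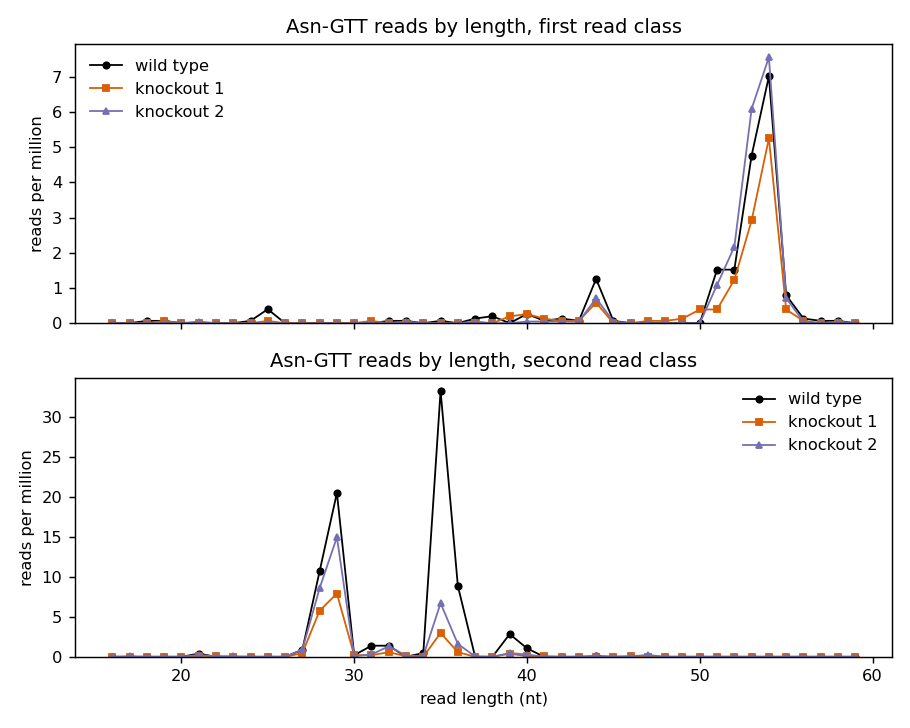
RPM of Asn-GTT at each read length in nt, for the first read class (top) and the second (bottom), in the wild type (circles), knockout 1 (squares) and knockout 2 (triangles). In the second class the wild-type peak at 35 nt, 33.3 RPM, stands at 2.98 and 6.71 RPM in the knockout libraries, while the first-class peak at 54 nt is at 7.02, 5.26 and 7.56 RPM.

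A ratio of lengths within the second class needs no library size. For each read of 28 or 29 nt the wild type had 1.35 reads of 35 or 36 nt, while knockout 1 had 0.261 and knockout 2 had 0.353. These length pairs were chosen after the lengths were seen. There were 13 pairings of anticodon and read class with at least 50 wild-type reads at both length pairs. Among these 13, Asn-GTT had the lowest ratio relative to the wild type in both knockout libraries, 0.193 and 0.261 times. That rank carries no weight, since Asn-GTT was chosen from this contrast and the limit of 50 reads used the wild type alone. The only other second-class pairing of the 13, that of Gly-CCC, stood at 1.10 and 0.417 times, so it too was lower in knockout 2. Asp-GTC, another tRNA with a queuosine wobble base, is among the 13 only with its first-class reads, the smaller part of its reads, at 1.77 and 1.63 times.

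**Figure D4:**
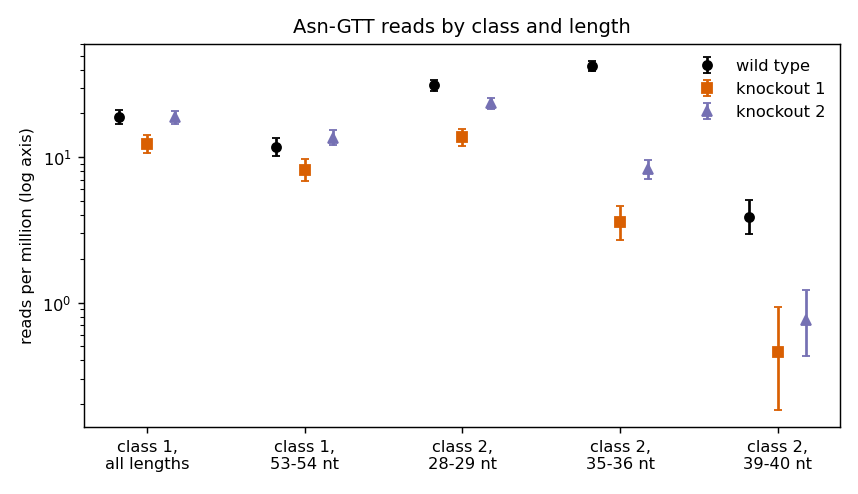
RPM (log axis) of Asn-GTT in 5 windows of read class and length, in the wild type (circles), knockout 1 (squares) and knockout 2 (triangles), with 95% exact Poisson intervals as bars. Second-class reads of 35 to 36 nt stand at 42.2, 3.57 and 8.31 RPM, while all first-class reads stand at 18.9, 12.4 and 18.8 RPM.

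By length feature, 11 Asn-GTT features had at least 20 wild-type reads, and 4 of them were more than 2-fold lower in both knockout libraries. These were the second-class lengths of 31, 35, 36 and 39 nt. Over all anticodons 8.21% of 524 such features met the same limit. Nothing is read from this count either, as it comes from the same contrast. The limit of 20 reads was set on the wild type alone, so features high only in the knockout libraries could not enter.

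The copies also differed in their lengths within the wild type, a comparison that does not involve the knockout. In the copies numbered 3, reads of 35 and 36 nt made up 39.9 to 48.4% of each copy's wild-type reads, 55 to 77 reads per copy. tRNA-Asn-GTT-1-1 had 18 such reads of 68 (26.5%) and tRNA-Asn-GTT-2-1 had 2 of 69 (2.90%). Reads of 28 and 29 nt were less uneven, with 37 to 53 in each copy numbered 3, 33 in tRNA-Asn-GTT-1-1 and 36 in tRNA-Asn-GTT-2-1. First-class reads of 53 and 54 nt were of like number as well, 9 to 22 in the copies numbered 3, and 9 and 19 in the others. The copies numbered 3 thus held 96.7% of the 35 and 36 nt reads, 85.2% of the 28 and 29 nt reads and 84.3% of the 53 and 54 nt reads.

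Each copy numbered 3 had fewer second-class reads of 35 and 36 nt in either knockout library than in the wild type. Reads of 35 and 36 nt numbered 4 to 9 per copy in knockout 1 and 13 to 24 in knockout 2, while reads of 28 and 29 nt numbered 13 to 28 and 33 to 57. In tRNA-Asn-GTT-2-1 the reads of 35 and 36 nt numbered 0 of 39 in knockout 1 and 0 of 76 in knockout 2. These counts allow a share of up to 7.69% and 3.95%. Such counts per copy are shares of 1 pool of reads and are not replicates.

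Within all Asn-GTT reads, those of 30 to 36 nt made up 45.3% in the wild type (42.9 to 47.8%), 14.6% in knockout 1 and 18.7% in knockout 2, whose upper Wilson limit of 21.1% was the higher of the knockout pair. With the 28 and 29 nt reads included, from 28 to 36 nt, the shares were 76.3%, 57.5% and 61.5%, and the mean difference of -28.7 percentage points became -16.7. Over all tRNA reads this length range held 94.2%, 91.6% and 90.6%. The narrower range of 33 to 36 nt, which was not planned and holds the 35 nt peak of Asn-GTT, was compared over 27 anticodons. Each had at least 1000 wild-type reads. Both read classes were pooled, and anticodons differ in their mix of classes. The share in this range was higher in both knockout libraries in 16 of the anticodons and lower in 6. Asn-GTT went from 42.3% to 11.4% and 15.6%, and its mean difference of -28.8 percentage points was the lowest of the 27, with Thr-AGT next at -5.61 points. Met-CAT, the elongator methionine tRNA, went the other way, from 34.6% to 50.2% and 47.6%. Nothing is read from the rank of Asn-GTT, as it was chosen from its difference between genotypes and the range holds its wild-type peak.

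**Figure D5:**
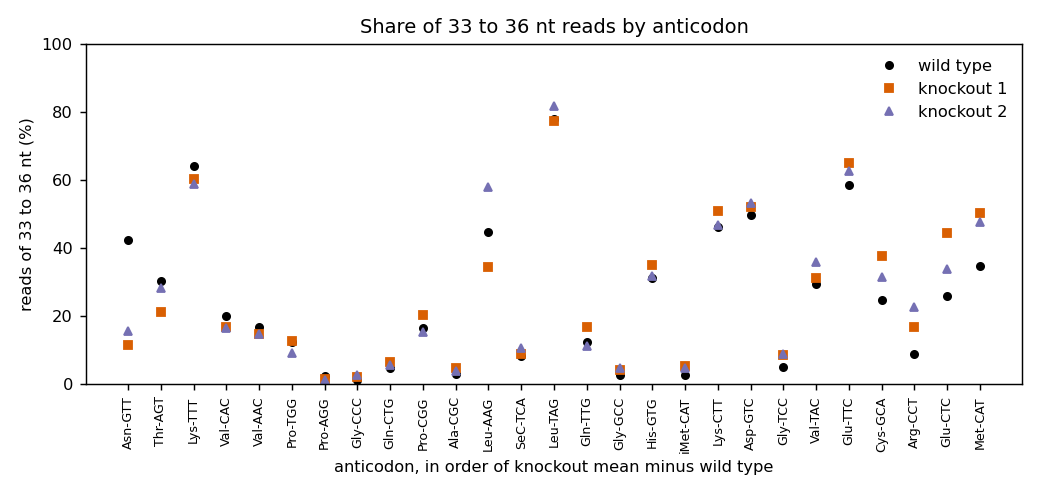
Share of reads of 33 to 36 nt, in percent, for 27 anticodons in the order of the knockout mean minus the wild type, with the wild type as circles, knockout 1 as squares and knockout 2 as triangles. Asn-GTT, at the left end, goes from 42.3% in the wild type to 11.4% and 15.6% in the knockout libraries.

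The other tRNAs whose wobble base is queuosine are Asp-GTC, His-GTG and Tyr-GTA, and 0 of these 3 were called in either direction by edgeR or DESeq2, with 0 at an unadjusted p under 0.05 by either tool (1 by edgeR on the per-library counts). Over all anticodons edgeR called 4 lower and 1 higher of 45, and DESeq2 2 lower and 2 higher of 50, and nothing is read from 0 of 3 beside these shares. Asp-GTC stood at 983 RPM in the wild type and at 865 and 980 RPM in the knockout libraries, and its log2 fold change of -0.09 turned positive with TMM factors, column sums, DESeq2 and a library size without miRNA reads. His-GTG stood at 4957, 3629 and 2709 RPM (log2 -0.65). Tyr-GTA was scarce, with 106, 45 and 149 reads, and knockout 2, at 7.04 RPM, matched the wild type, at 7.02. Asp-GTC was mostly second-class, as Asn-GTT was, with 70.3%, 72.6% and 65.3% of its reads in that class. In the wild type the second class held 43.1% of Tyr-GTA reads and 0.0329% of His-GTG reads.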

How the data were processed

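The members and lists were chosen with earlier results of these data known. The authors deposited read counts that were not normalized: 1 table of 5 RNA classes, 1 of tRNA genes, and 1 per library with each gene's count in 2 read classes and a list of lengths with their counts, recorded as other. Per the submitters' processing notes the build was mm10 and cutadapt was used. Neither the aligner and counter nor the treatment of reads with several matching gene copies is given in these sources. Of the tRNA class, the gene table held 59.4%, 59.4% and 59.1%, and the tables per library held 95.5%, 94.1% and 94.2% (wild type, knockout 1, knockout 2). Knockout was compared with wild type across all anticodon sums and all gene rows with edgeR 4.0.16 in R 4.3.3. The settings were the quasi-likelihood test, the 5-class total as library size, filterByExpr and Benjamini-Hochberg at 0.05. A run on simulated data gave every library the same spread, so it does not show how reliable the calls are here. The wild type's spread is assumed to equal that of the knockout libraries, which leave 1 residual degree of freedom. DESeq2 1.42.0, TMM factors, other library sizes, no filter, the per-library counts and each knockout library left out were alternatives. The design planned that copies would be grouped by sequence, which was not done because stretches of only 2 copies were read. Copies with at least 50 wild-type gene-table reads, and the 3 with most reads per library, were named.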

Additional observations from a re-analysis of the deposited data

How the results depend on the processing

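The lower level of Asn-GTT in the knockout libraries kept its direction in all 9 alternatives, with a log2 fold change from -2.20 (without knockout 2) to -1.21 (per-library counts), the latter further from the reported -1.92 than the knockout SD. The number of its gene rows called lower, 11 of 11 tested as reported, was 6 of 11 with TMM factors and 6 of 13 with DESeq2. It was 1 of 11 with column sums and 1 of 11 without miRNA reads in the library size. With per-library counts it was 0 of 11 (9 at an unadjusted p under 0.05 by edgeR), and with no filter 9 of 13. Over all rows the calls were 30 lower and 11 higher of 348 as reported. They were 6 and 12 with TMM factors (of 348) and with DESeq2 (of 410). With column sums they were 12 and 9 of 351, and without miRNA reads 1 and 0 of 351. With per-library counts they were 11 and 11 of 359 (39 lower at an unadjusted p under 0.05 by edgeR), and with no filter 24 and 11 of 410. The median log2 of all anticodons was -0.29 as reported and -0.03, -0.03, -0.13 and -0.05 with TMM factors, column sums, DESeq2 and no miRNA reads. The second-class share differed by -17.7 points, by -15.4 to -20.1 with either knockout library left out, and by -2.89 with reads of 15 to 50 nt alone, which leaves out most first-class reads and puts knockout 2 (97.1%) above the wild type (96.5%). The share of 30 to 36 nt differed by -28.7 points, by -26.6 to -30.7 with either library left out, by -16.7 from 28 nt on, and by -0.66 in the first class alone, which holds few such reads. The count of 35 and 36 nt per 28 and 29 nt differed by -1.04, by -1.21 for 35 against 29 nt and by -1.19 without the copies numbered 1 and 2, alternatives chosen after seeing the data. For first-class reads log2 was -0.28, from -0.61 without knockout 2 to -0.01 without knockout 1, and it was -0.03 without miRNA reads. The ratio of the tables differed by -0.772, and by -0.648 to -0.896 with either library left out. No paired analysis was possible because the labels number only the knockout libraries. The 35 and 36 nt counts of 55 and 176 limit what can be said of single copies.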
